A study of Rattus norvegicus with 6 samples.

Results

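Actin filaments give leukocytes their shape, their motility and their capacity to engulf particles. A set of 10 genes of this machinery were followed in the lumbar spinal cord of rats with bone cancer pain (BCP), out of 30957 genes in the deposited gene table. Each was taken as the row whose gene name equals Arpc1a, Arpc1b, Arpc2, Arpc5, Was, Wipf1, Coro1a, Lcp1, Msn or Ezr, each name had 1 row, and all 10 had enough counts to be tested. In BCP rats 6 of the 10 were up-regulated with an estimate of more than 2-fold (Was, Coro1a, Arpc1b, Lcp1, Ezr and Msn). Of these, 4 also passed a test against a 2-fold change, which Coro1a and Msn did not. Arpc5, Arpc2 and Wipf1 were also higher, by less than 2-fold, and Arpc1a did not pass the test.

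The Arp2/3 complex starts a new filament as a branch on the side of an existing one. Its subunits include ARPC1, which exists in the alternative forms ARPC1A and ARPC1B, ARPC2, which holds the complex to the mother filament, and ARPC5. The complex is switched on by WASP, the product of Was, which is made in blood cells and is held and protected by WIP, the product of Wipf1. Coronin 1A (Coro1a) binds filaments and the Arp2/3 complex, L-plastin (Lcp1) bundles filaments, and moesin (Msn) and ezrin (Ezr) tie filaments to the plasma membrane. Several of these genes are used mainly by leukocytes, and in the spinal cord microglia are the resident cells of that lineage.

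RNA-seq was performed on 6 libraries of Wistar rats, with 3 libraries in the BCP group and 3 in the sham-operated group, all taken on day 14. Both groups had an injection into the medullary cavity of the left tibia, of living Walker 256 cells (a rat mammary carcinoma line grown as ascites) in BCP rats and of heat-killed cells in sham-operated rats, so the surgery and an injection of cells are shared and no group was left without an operation. The rats were adult females by the study's methods, and the tissue was the ipsilateral side of the lumbar enlargement with the meninges removed. The sources used here do not say whether each library came from 1 animal, so the p-values measure the spread between these libraries only. Total counts on genes ranged from 11779485 to 15004290 per library, and chi-square tests found more difference than sampling noise allows between all libraries of a group (3.48 to 6.04 per degree of freedom). The neuronal and glial markers of spinal cord were present in every library, with Mbp at 12612 to 21534 CPM (a gene's count scaled by library size with TMM factors) and Rbfox3 at 43.0 to 60.4 CPM.

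RefSeq promoter windows in the GRCr8 assembly, from 250 bases before to 50 bases after the gene start, were at hand for 8 of the 10 genes. They are shown for the pair whose window holds the letters GAGGAAG (capitals), which contain the GGAA core read by PU.1 and other ETS factors, and for Coro1a and Was, which had the largest fold changes and no such letters. The Arpc1b window lies at chr12:14609439-14609738 on the minus strand, the Arpc5 window at chr13:67454129-67454428 on the plus strand, the Coro1a window at chr1:190731054-190731353 on the minus strand and the Was window at chrX:17076807-17077106 on the plus strand.
Arpc1b: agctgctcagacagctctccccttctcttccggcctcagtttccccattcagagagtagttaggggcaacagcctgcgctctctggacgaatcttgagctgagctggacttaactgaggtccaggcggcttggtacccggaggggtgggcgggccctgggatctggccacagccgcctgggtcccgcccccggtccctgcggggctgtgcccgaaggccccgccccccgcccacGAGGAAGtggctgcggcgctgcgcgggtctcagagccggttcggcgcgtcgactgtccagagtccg
Arpc5: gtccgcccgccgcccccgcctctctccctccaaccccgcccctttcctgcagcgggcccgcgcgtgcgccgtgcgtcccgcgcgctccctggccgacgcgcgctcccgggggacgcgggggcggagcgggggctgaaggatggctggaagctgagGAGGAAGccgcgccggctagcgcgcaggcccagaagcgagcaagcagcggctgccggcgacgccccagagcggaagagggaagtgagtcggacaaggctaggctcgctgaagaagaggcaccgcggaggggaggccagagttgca
Coro1a: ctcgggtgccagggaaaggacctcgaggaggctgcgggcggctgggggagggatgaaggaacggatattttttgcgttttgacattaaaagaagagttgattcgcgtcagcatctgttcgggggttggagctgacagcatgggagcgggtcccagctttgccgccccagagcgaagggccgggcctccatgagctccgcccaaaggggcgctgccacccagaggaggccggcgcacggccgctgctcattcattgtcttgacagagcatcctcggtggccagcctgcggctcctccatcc
Was: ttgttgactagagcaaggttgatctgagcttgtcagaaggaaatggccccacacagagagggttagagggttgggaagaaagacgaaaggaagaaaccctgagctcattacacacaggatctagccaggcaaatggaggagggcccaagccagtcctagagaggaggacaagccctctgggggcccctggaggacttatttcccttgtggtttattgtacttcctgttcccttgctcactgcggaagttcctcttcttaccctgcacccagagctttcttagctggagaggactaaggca
GAGGAAG was searched on both strands and was found in 2 of the 8 windows, starting 16 bases before the gene start of Arpc1b and 95 bases before that of Arpc5, whereas 12.4% of all 33469 windows held it. The CArG box read by serum response factor, a regulator of many actin genes, was in 0 of the 8 windows and in 1.64% of all windows. The GC content of the 8 windows ran from 49.3% in Wipf1 to 74.7% in Arpc5, and it exceeded the upper quartile of all windows (60.3%) in 6 of them. The core GGAA by itself also occurs in the printed Coro1a and Was windows, so a window without GAGGAAG does not lack that core. These matches of letters describe the windows only.

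Counts of 14908 genes were compared between the groups by the quasi-likelihood test of edgeR, and a gene was called at a Benjamini-Hochberg adjusted p under 0.05 with an absolute log2 fold change (log2FC, BCP against sham) over 1. By this rule 6 of the 10 genes were up-regulated, against 6.35% of all genes tested, and 0 were down-regulated, against 0.107%. DESeq2 gave the same counts, and 0 genes were lower at an unadjusted p under 0.05. By the adjusted p alone 9 of the 10 were higher, against 15.8% of all genes, and 0 were lower, against 12.1%. The 3 BCP libraries lay above the 3 sham libraries for 9 of the 10, against 21.7% of all genes, and below them for 0, against 19.8%. The median log2FC of the 10 genes was 1.24, and that of all genes tested was -0.01. In bulk tissue, more cells of a type and more RNA per cell cannot be told apart, so each value is a level in the tissue.

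**Figure D1:**
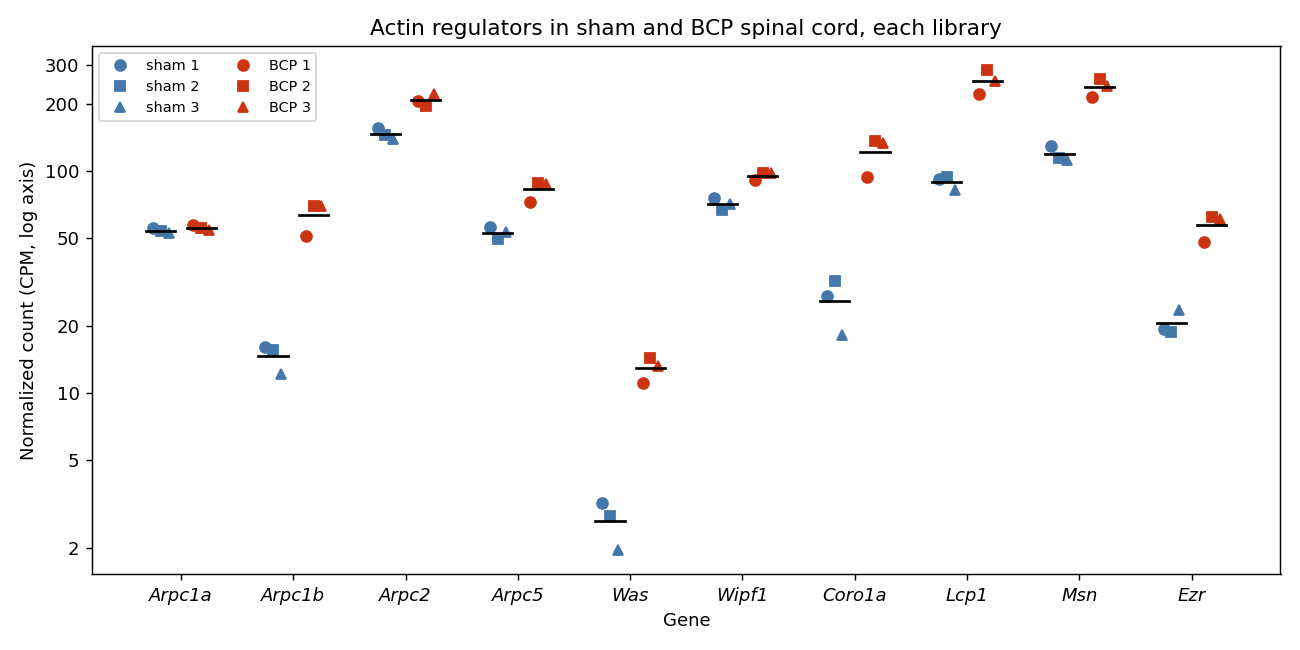
Normalized counts (CPM, log axis) of the 10 actin regulators in each of the 3 sham and 3 BCP libraries, with a bar at each group mean. The groups are separate for every gene except Arpc1a, where 52.3 to 55.2 CPM in sham libraries meets 54.1 to 57.0 CPM in BCP libraries.

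Within the Arp2/3 complex, Arpc1b rose 4.33-fold, and its alternative Arpc1a did not pass the test. Arpc1b (ENSRNOG00000000991, chromosome 12, 11252296 to 11265865, Rnor_6.0) was measured at 16.1, 15.6 and 12.2 CPM in sham libraries 1, 2 and 3 and at 50.7, 69.5 and 69.1 CPM in BCP libraries 1, 2 and 3. Every BCP library held more than 3 times the level of any sham library. The group means were 14.6 ± 2.14 and 63.1 ± 10.7 CPM (SD, n = 3 libraries a group), with a log2FC of 2.12 (SE 0.152, edgeR adjusted p = 9.83e-06).

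Arpc1a (ENSRNOG00000000996, chromosome 12, 11272609 to 11294058), which lies 6743 bases from Arpc1b and encodes the other form of the same subunit, showed no such separation. Its levels were 55.2, 53.6 and 52.3 CPM in sham libraries and 57.0, 55.3 and 54.1 CPM in BCP libraries, and the groups overlapped. The log2FC was 0.05 with a 95% interval of -0.09 to 0.18 (edgeR adjusted p = 0.649). The libraries of a group differed little for this gene, with a coefficient of variation of 2.72% in sham and 2.58% in BCP libraries.

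ARPC2 and ARPC5 are core subunits, and their genes rose by less than 2-fold. Arpc2 (ENSRNOG00000014289, chromosome 9, 81518176 to 81548871) was at 156, 144 and 139 CPM in sham libraries and at 206, 195 and 222 CPM in BCP libraries. It was higher in each BCP library, with a log2FC of 0.51 (SE 0.055, edgeR adjusted p = 7.81e-07). Arpc5 (ENSRNOG00000028062, chromosome 13, 70174970 to 70183874) went from 55.6, 49.4 and 52.8 CPM to 72.6, 88.2 and 86.9 CPM. BCP library 1 was the lowest of its group and still exceeded the highest sham library, and the log2FC was 0.65 (SE 0.075, edgeR adjusted p = 2.03e-06). The intervals of both genes, 0.39 to 0.62 and 0.49 to 0.81, excluded the 2-fold threshold.

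The other subunit genes of the complex had smaller differences. Of 6 further genes, Actr3 (log2FC 0.45), Arpc3 (0.37), Actr2 (0.37) and Arpc4 (0.36) were higher by the adjusted p alone, and none was called by edgeR or DESeq2 since the highest log2FC was 0.45. Actr2 and Actr3 encode the actin-related proteins on which the new filament is built. Arpc5l, the alternative to Arpc5, had a log2FC of 0.14 (edgeR adjusted p = 0.259), and Actr3b, the alternative to Actr3, had -0.31 (edgeR adjusted p = 0.0541) and was the 1 gene of the list that was lower at an unadjusted p under 0.05. With upper-quartile factors 1 gene of the list was lower by the adjusted p. Among the 10 subunit genes, Arpc1b alone passed the 2-fold threshold.

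Among the activators, Was had the smallest counts and the largest fold change. Was (ENSRNOG00000031058, chromosome X, 15155230 to 15164105) had 42, 40 and 29 counts in sham libraries and 131, 201 and 175 counts in BCP libraries, that is 3.20, 2.79 and 1.96 CPM against 11.1, 14.4 and 13.3 CPM. The lowest BCP library was more than 3 times the highest sham library. The log2FC was 2.29 (95% interval 1.89 to 2.69, edgeR adjusted p = 1.61e-08), a 4.89-fold rise that 2.41% of the genes tested exceeded. Sham library 3, with 29 counts, was the lowest, and the coefficient of variation in the sham group was 23.9%.

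Wipf1 (ENSRNOG00000018406, chromosome 3, 60150021 to 60166013), the partner that stabilizes WASP, was already well expressed in sham rats. It was at 74.96, 66.7 and 70.7 CPM in sham libraries and at 90.6, 97.5 and 97.2 CPM in BCP libraries. The groups were separate, but the rise was 1.34-fold (log2FC 0.43, SE 0.060, edgeR adjusted p = 1.56e-05). Its interval of 0.30 to 0.55 did not meet that of Was.

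Coronin 1A and L-plastin are filament-binding proteins of blood cells, and both genes were up-regulated. Coro1a (ENSRNOG00000019430, chromosome 1, 198123884 to 198128857) was at 27.2, 31.9 and 18.3 CPM in sham libraries and at 93.7, 136 and 133 CPM in BCP libraries. Sham library 3 and BCP library 1 stood low in their groups, and the groups did not overlap. The log2FC was 2.23 with the largest error of the 10 genes (SE 0.280, 95% interval 1.47 to 2.99, edgeR adjusted p = 0.0065). Leaving out 1 library at a time gave a log2FC of 2.03 to 2.42 and an adjusted p of 0.00821 to 0.0332. When the test was made against a 2-fold change rather than against no change, the adjusted p was 0.0758.

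Lcp1 (ENSRNOG00000010319, chromosome 15, 57221292 to 57277811) was far more even between libraries. It was at 91.4, 93.5 and 81.8 CPM in sham libraries and at 222, 284 and 254 CPM in BCP libraries. Each BCP library was more than 2 times the highest sham library, with a log2FC of 1.51 (SE 0.095, edgeR adjusted p = 1.01e-05).

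The linkers of filaments to the membrane, ezrin and moesin, both rose. Ezr (ENSRNOG00000018524, chromosome 1, 47287874 to 47331412), known mostly from epithelial cells but also present in lymphocytes and glia, was at 19.5, 18.7 and 23.5 CPM in sham libraries and at 47.7, 62.1 and 60.8 CPM in BCP libraries. Here sham library 3 was the highest of its group, unlike for Coro1a and Was. The log2FC was 1.47 (SE 0.112, edgeR adjusted p = 1.61e-07).

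Msn (ENSRNOG00000030118, chromosome X, 65226748 to 65295810), the main member of this family in leukocytes, was at 130, 114 and 112 CPM in sham libraries and at 215, 258 and 241 CPM in BCP libraries. All BCP libraries were above the sham libraries, with a log2FC of 1.01 (95% interval 0.85 to 1.17, edgeR adjusted p = 9.90e-07), which lies on the threshold. The log2FC was 0.97 with upper-quartile normalization, 0.98 without sham library 2, 0.97 without sham library 3, 0.95 without BCP library 2 and just under 1 without BCP library 3, so that the call was lost in each case although the adjusted p stayed at 0.000199 or less. Tested against a 2-fold change, Msn had an adjusted p of 1.

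Between genes, levels can be compared only per length, in the authors' FPKM (fragments scaled to transcript length and library size). In sham libraries Arpc1a had the highest mean with 35.4 FPKM, followed by Arpc5 with 25.6, Arpc2 with 22.3, Msn with 20.6, Wipf1 with 18.5, Lcp1 with 16.7, Coro1a with 15.9, Arpc1b with 9.49, Ezr with 6.49 and Was with 1.20 FPKM. Neighbours from Arpc2 down to Coro1a overlapped in their range over libraries, and the others did not. In BCP libraries Coro1a came first with 76.7 FPKM, followed by Lcp1 with 48.9, Msn with 42.6, Arpc1b with 42.2, Arpc5 with 41.3, Arpc1a with 37.6, Arpc2 with 32.6, Wipf1 with 25.6, Ezr with 18.5 and Was with 6.02 FPKM. Neighbours from Lcp1 to Arpc1a overlapped there. The gain in mean FPKM was 60.7 for Coro1a, 32.7 for Arpc1b and 32.2 for Lcp1, compared with 4.82 for Was, whose fold change was larger.

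Most of the genes have close relatives with a wider use, and the proportions within families differed between the groups. The ratio of Arpc1b to Arpc1a in FPKM was 0.287, 0.287 and 0.229 in sham libraries and 0.877, 1.24 and 1.26 in BCP libraries. Arpc1b made up 21.1% ± 2.11 of the pair in sham libraries and 52.6% ± 5.07 in BCP libraries (SD, n = 3). A ratio within a library does not depend on the scaling between libraries. With 3 libraries against 3, the smallest p that an exact two-sided permutation test can give is 0.1, and all 9 ratios tested reached it (p = 0.1 each, adjusted p = 0.1), so none could pass 0.05.

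Was took 3.64% ± 0.836 of the summed FPKM of Was and Wasl in sham libraries and 15.1% ± 1.69 in BCP libraries. Wasl encodes N-WASP, the widely expressed relative, and its own log2FC was 0.04 with a 95% interval of -0.06 to 0.15. Coro1a made up 16.0% ± 3.43 and 43.0% ± 4.68 of the type I coronins, and the ratio of Coro1a to Coro1b was 0.342, 0.362 and 0.224 in sham libraries and 0.909, 1.25 and 1.25 in BCP libraries. Lcp1 made up 17.5% ± 0.664 and 39.4% ± 3.30 of the plastins, in which Pls3 (T-plastin) had the largest share in both groups. No library of 1 group overlapped the other in these shares. Of all genes tested, 21.7% had levels above, and 19.8% below, those of sham libraries in all BCP libraries. How often the ratios of other gene pairs separate the groups was not tested.

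The differences were smaller in the remaining families. Arpc5 took 54.6% ± 0.656 of its pair with Arpc5l in sham libraries and 63.1% ± 3.25 in BCP libraries. Wipf1 took 57.3% ± 3.09 and 68.1% ± 2.76 of the WIP family. In the ERM family Msn made up 21.2% ± 1.11 and 32.9% ± 2.30 of the summed FPKM and Ezr 6.72% ± 0.879 and 14.3% ± 1.81. Radixin (Rdx) made up 72.0% ± 0.593 and 52.9% ± 4.08, with a log2FC of its own of -0.07 (edgeR adjusted p = 0.442). The ratio of Msn to Ezr was 3.67, 3.35 and 2.61 in sham libraries and 2.48, 2.29 and 2.18 in BCP libraries, the one ratio that was lower in BCP libraries.

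**Figure D2:**
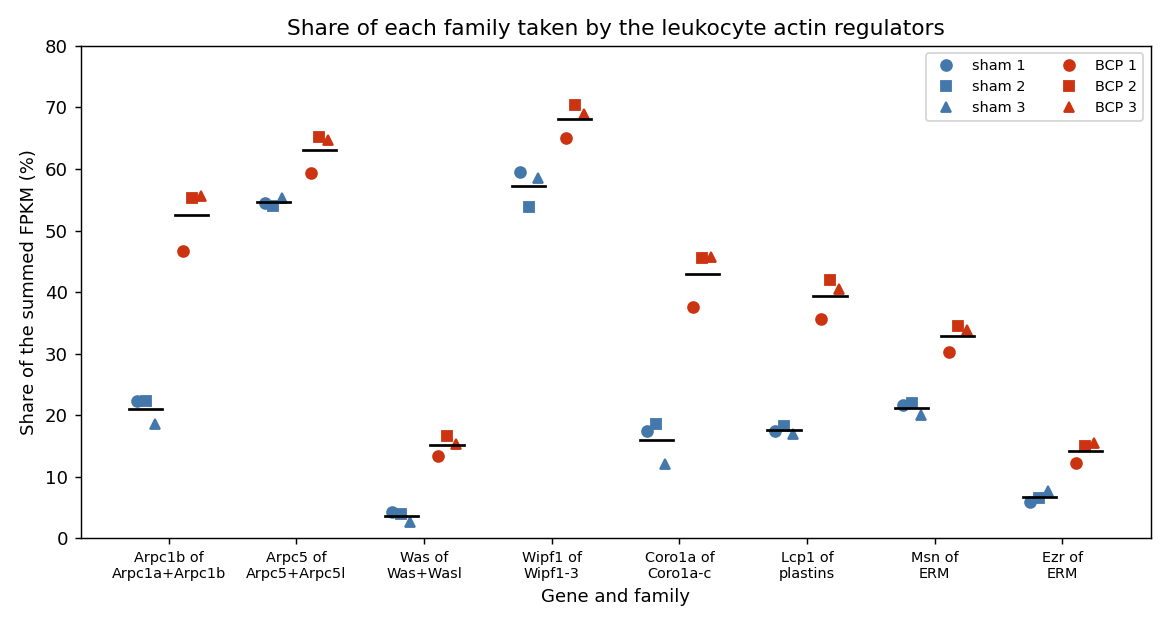
Share (percent, linear axis from 0) of a family's summed FPKM taken by each actin regulator in each of the 3 sham and 3 BCP libraries, with a bar at the group mean. The 8 genes shown lie higher in all BCP libraries, from 21.1% to 52.6% for the mean of Arpc1b and from 3.64% to 15.1% for that of Was.

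Of the 16 other genes of these families, 2 were higher and 6 were lower by the adjusted p, against 15.8% and 12.1% of all genes tested. None was called by edgeR or DESeq2, since every log2FC lay between -0.33 and 0.50. At an unadjusted p under 0.05 there were 2 higher and 7 lower. Wasf2, which encodes a WAVE protein that blood cells also use, had a log2FC of 0.50 (edgeR adjusted p = 0.000155), and Coro1b had 0.35 (edgeR adjusted p = 4.36e-05). The lower genes were Coro6 (log2FC -0.33), Wasf3 (-0.30), Wipf2 (-0.27), Coro2b (-0.24), Wasf1 (-0.23) and Pls1 (-0.19), of which Wasf1, Wasf3 and Coro2b are known for expression in neurons. The number of lower genes was 4 with DESeq2 or library size alone and 7 with upper-quartile factors. Pls3 (-0.07), Rdx (-0.07), Coro1c (0.05) and Wasl (0.04) did not pass the test. Wipf3 had between 8 and 58 counts per library, and its 95% interval ran from -2.31 to 3.12.

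**Figure D3:**
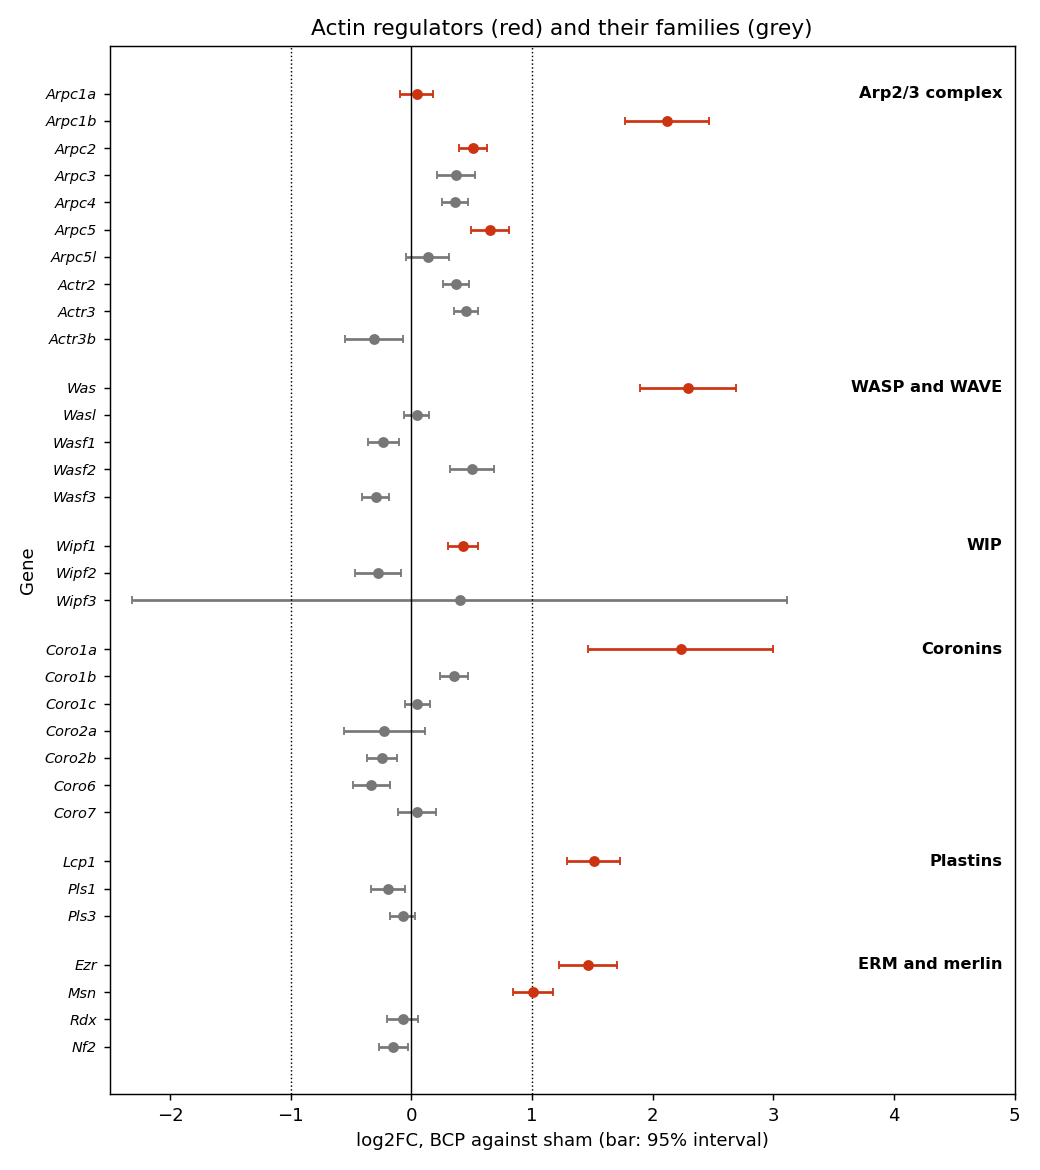
Log2FC of BCP against sham with its 95% interval for the 10 actin regulators (red) and 22 relatives (grey), by family, with dotted lines at the threshold of 1 in either direction. The grey points lie between -0.33 and 0.50, while 6 red points lie beyond 1 and that of Arpc1a lies at 0.05.

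The genes that act with these regulators were counted in 5 further lists. Of 19 partners that promote nucleation, 5 were up-regulated. The smallest p-values were those of Nckap1l (log2FC 2.36), the blood-cell subunit of the WAVE complex, Hcls1 (2.73), the blood-cell relative of cortactin, and Abi3 (1.81), another WAVE subunit, and the largest log2FC was that of Fyb (3.27), an adaptor of blood cells that was chosen after its value was seen. The list's median was 0.16, and 9 of its genes were higher and 0 lower by the adjusted p, where 2 were lower at an unadjusted p under 0.05 and 2 with upper-quartile factors. Both rows of Cttn, chosen for mention after its values were seen, were listed at 0 counts in every library, which for a widely expressed gene cannot be read as absence of its transcript.

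In the list of filament turnover and capping, 4 of 27 rows were up-regulated, with 13 higher and 3 lower by the adjusted p and a median of 0.16. These rows hold Tmsb10 more than once. Scin, which encodes the severing protein scinderin, had 0 counts in each sham library and 234, 372 and 326 counts in BCP libraries, at least 110.8-fold higher when 3 counts were set for each sham library. Tmsb4x, the main monomer-binding thymosin, had a log2FC of 1.06, and Gmfg, which removes Arp2/3 branches in blood cells, had 2.10. Of 15 bundling and crosslinking genes 2 were up-regulated, Fmnl3 (1.24), a formin, and Vasp (1.20), which speeds filament growth, with 9 higher and 2 lower by the adjusted p and a median of 0.24.

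Of 9 tested actins and myosins 2 were up-regulated, Myo1f (log2FC 2.72) and Myo1g (3.24), both class I myosins of blood cells, with 5 genes higher and 1 lower by the adjusted p and a median of 0.29. Of 11 regulators and membrane ligands of the ERM proteins 4 were up-regulated, and the median was 0.54. In order of p these were Cd44 (1.07), a hyaluronan receptor that binds moesin, Pdpn (1.18), which encodes the ERM-binding podoplanin, Spn (3.37), which encodes the leukocyte sialophorin, and Icam1 (2.49), an adhesion molecule that is named here after its value was seen. In all, 17 genes of these lists were up-regulated and 0 down-regulated by edgeR, and DESeq2 also gave 0 down-regulated. Of all genes tested, 6.35% were up-regulated and 0.107% down-regulated, so 0 down-regulated is near the share of all genes. By the adjusted p alone 15.8% of all genes were higher and 12.1% lower. At an unadjusted p under 0.05 there were 0 with a log2FC under -1.

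**Figure D4:**
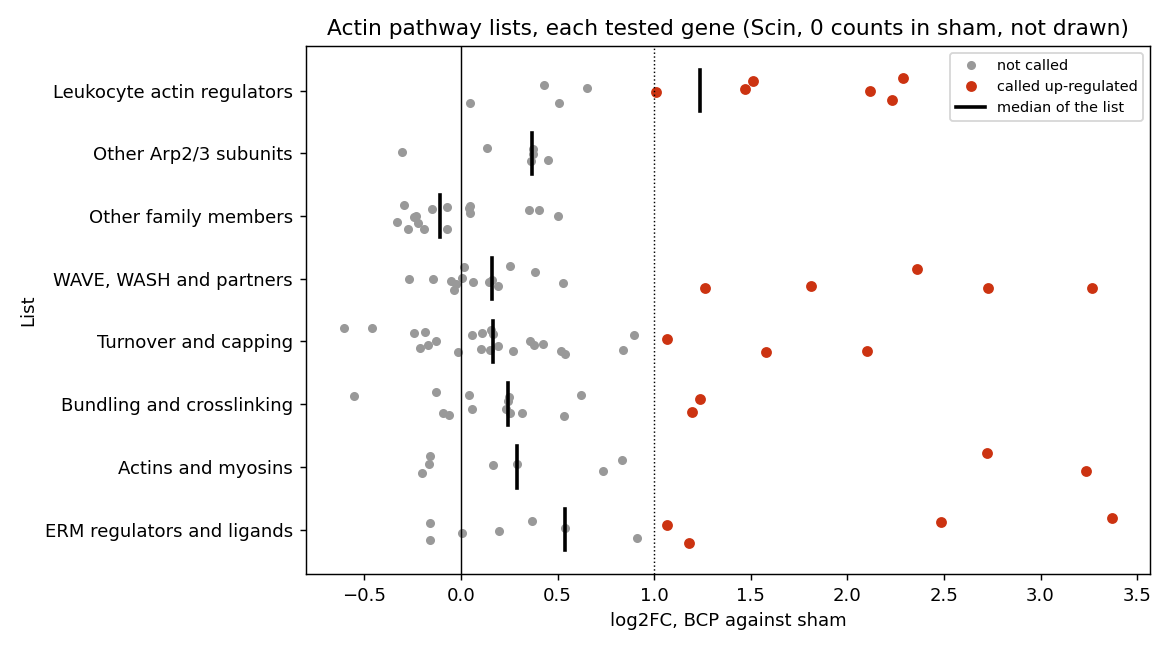
Log2FC of BCP against sham of each tested gene in the 10 actin regulators and 7 other actin lists (red, called up-regulated; grey, not called; bar, list median; Scin, at 0 counts in sham libraries, is left out of the points). The list medians other than that of the 10 regulators lie between -0.11 and 0.54, and 5 of these lists hold genes called up-regulated, beyond 1.

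In the KEGG terms of the deposited annotation, 6 of the 10 genes belonged to the regulation of actin cytoskeleton, in which 22 of 168 tested genes (13.1%) were up-regulated. Fc gamma receptor-mediated phagocytosis held Arpc1b, Arpc2, Arpc5 and Was, with 19 of 80 tested genes (23.8%) up-regulated. Leukocyte transendothelial migration held Msn and Ezr, with 20 of 85 (23.5%). Endocytosis held 5 of the 10 genes, with 23 of 236 tested genes (9.75%) up-regulated and 1 down-regulated. The share of all genes tested that were up-regulated was 6.35%. In the 7 terms that held at least 2 of the 10 genes, this share ran from 9.75% to 23.8% and the median log2FC from -0.01 to 0.14.

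Markers of several leukocytes moved with the actin regulators. All 5 tested pan-leukocyte markers were up-regulated, with a summed level of 83.3 to 100 CPM in sham libraries and 371 to 468 CPM in BCP libraries, and Ptprc (CD45) had a log2FC of 3.42. Of 16 tested microglial markers 9 were up-regulated, with a summed level of 427 to 536 CPM and 1193 to 1440 CPM. Aif1 (2.40) and Cx3cr1 (1.42) were among them. P2ry12 (0.79, edgeR adjusted p = 4.75e-05) was higher by the adjusted p alone, and Tmem119 (0.19, edgeR adjusted p = 0.662) did not pass the test. Of 11 T cell markers with a row, 8 had enough counts to be tested, and all 8 were up-regulated. Their summed level was 2.30 to 3.66 CPM in sham libraries and 31.2 to 44.8 CPM in BCP libraries. Cd3e had 0, 0 and 1 counts in sham libraries and 56, 104 and 111 counts in BCP libraries. A marker so low in sham libraries could be tested only if its BCP counts were high, so the filter fixed its direction. All 6 proliferation markers were up-regulated, from 14.3 to 41.3 CPM to 121 to 207 CPM. Their part in the rise of the actin regulators was not tested.

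Markers of other infiltrating or tumour cells were also counted. Of 7 tested markers of monocytes and border macrophages 2 were up-regulated (244 to 254 CPM against 733 to 971 CPM summed). These were Lyz2, with 447 to 574 counts against 4902 to 8248 counts (log2FC 3.88), and Plac8, with 16 to 63 counts against 961 to 1489 counts (log2FC 5.01), both named after their values were seen. The other tested markers of this list, Mrc1 (0.17), Vcan (0.12), F13a1 (-0.15), Cd163 (-0.27) and Lyve1 (-0.52), were not called. Vcan made up most of the sum in sham libraries (185 to 197 CPM). Ccr2 had 0 counts in each sham library and 1 count in each BCP library. Of 10 neutrophil markers only 2 had enough counts to be tested, and both were up-regulated (7.97 to 9.99 CPM against 25.8 to 32.6 CPM summed). Most of this sum was Csf3r (7.97 to 9.91 CPM against 23.8 to 31.9 CPM), named after its values were seen. S100a8 was at 1, 0 and 0 counts against 23, 15 and 10 counts. It passed the filter only through its BCP counts, so its direction was fixed by the filter. Of 7 B and plasma cell markers 0 had enough counts to be tested. Epcam, a marker of epithelial tumour cells, had 0 to 8 counts per library. Of the 2 tested epithelial tumour markers none was called by edgeR or DESeq2 or passed an unadjusted p under 0.05 (3.51 to 4.89 CPM against 3.86 to 6.06 CPM summed).

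Among the resident neural cells, all 6 oligodendrocyte markers were lower by the edgeR adjusted p (38298 to 43528 CPM against 27409 to 30592 CPM summed), as were 5 of 10 neuronal markers (9117 to 9303 CPM against 7752 to 8596 CPM summed). Of 7 astrocyte markers 1 was higher and 3 were lower (6487 to 6723 CPM against 7587 to 9666 CPM summed), with Gfap at a log2FC of 0.80. The highest of these sums came from Aqp4, at 2415 CPM in BCP library 1 against 360 and 362 CPM in BCP libraries 2 and 3 (354 to 379 CPM in sham libraries). Of 6 endothelial markers 1 was higher (413 to 428 CPM against 437 to 463 CPM summed). No marker of meninges and fibroblasts (6 tested, 152 to 178 CPM against 171 to 229 CPM summed) or of ependymal cells (4 tested, 60.1 to 62.4 CPM against 51.4 to 57.1 CPM summed) was called by edgeR or DESeq2, with 0 and 1 of them at an unadjusted p under 0.05.

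The same libraries stood low for many up-regulated genes. BCP library 1 was the lowest of its group for 8 of the 10 actin regulators, for 74.8% of the 946 genes called up-regulated and for 35.9% of all genes tested. Sham library 3 was the lowest of its group for 7 of the 10, for 59.2% of the up-regulated genes and for 35.8% of all genes tested. BCP library 1 also had the lowest summed level of the pan-leukocyte, microglial, T cell and proliferation markers in its group, and sham library 3 the lowest of each in its own. Without BCP library 1 and without sham library 3, respectively, 6 and 5 of the 10 genes were called, Msn being the one lost.

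Transcripts from the same loci were also counted in the lncRNA table. Within 10 kb of the 10 genes lay 12 lncRNAs, near 8 of them, and 7 had enough counts to be tested among the 12157 lncRNAs. Of these 7, 2 were up-regulated, against 1.14% of all lncRNAs tested, and 0 were down-regulated, against 0.074%. DESeq2 called the same number, and 4 of the 7 had an unadjusted p under 0.05. Both up-regulated lncRNAs overlap Arpc1b.

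NONRATT007747.2 (chromosome 12, 11250953 to 11253132) had 23, 14 and 15 counts in sham libraries and 46, 54 and 42 counts in BCP libraries, with a log2FC of 1.58 (SE 0.293, edgeR adjusted p = 0.0369). NONRATT007749.2 (chromosome 12, 11253577 to 11255450) had 12, 19 and 24 counts against 41, 55 and 60 counts, with a log2FC of 1.65 (SE 0.278, edgeR adjusted p = 0.0248). Each was higher in all BCP libraries, but the calls did not hold in every fit. With the replicate number as a block the adjusted p was 0.108 and 0.0719, and without a filter on low counts it was 0.0694 for the first. With 1 library left out the adjusted p ranged from 0.0338 to 0.145 for the first, which was called only without sham library 1, and from 0.0511 to 0.111 for the second, which was called in no such fit. The lncRNA table gives no strand, and whether the counting used strand is not given in the sources used here, so reads of these lncRNAs and of Arpc1b cannot be told apart. NONRATT007750.2, which overlaps Arpc1a, had a log2FC of -0.72 (edgeR adjusted p = 0.313).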

How the data were processed

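Total RNA was depleted of ribosomal RNA and made into strand-specific libraries. Reads were cleaned by the authors using Seqtk, aligned to the Rnor_6.0 build using HISAT2 2.0.4 and quantified using StringTie 1.3.0. For each gene and lncRNA the authors deposited unnormalized counts and FPKM. The program that made the counts, its use of strand and its handling of reads with several locations are not given in the sources used here. Groups were taken from the labels.

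Counts of all genes, and separately of all lncRNAs, were fitted in edgeR 4.0.16 (R 4.3.3) with its filter by expression, TMM normalization, a robust quasi-likelihood fit on condition and Benjamini-Hochberg adjustment over the whole table. The code was tested on simulated data. The biological coefficient of variation was 7.72% among genes and 33.4% among lncRNAs. Of the list symbols, 9 were matched through an older symbol in the RefSeq table of GRCr8, which served for names only, and 9 were not matched.

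The 10 genes and all lists were chosen with earlier results of these data known. By the naming rule the text names all 10 genes, genes of the Arp2/3 and family lists, the 3 genes with the smallest p per direction in each other actin list, called lncRNAs within 10 kb and the defining markers. A few of these items are left out of the text. The alternatives were DESeq2 1.42.0, other normalizations and filters, a test against a 2-fold change, the adjusted p alone, other settings of the FPKM ratios, other distances for lncRNAs, the replicate number as a block, and each library left out. Figures were drawn with matplotlib 3.10.9.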

Additional observations from a re-analysis of the deposited data

How the results depend on the processing

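Of the 10 actin regulators, 6 were called under DESeq2, relative log expression factors, library size alone, both other filters on low counts and the replicate number as a block, 5 with upper-quartile factors and 4 in the test against a 2-fold change, which left out Coro1a and Msn. With 1 library left out 5 or 6 were called, and only Msn was lost. No log2FC changed sign in any of these fits. Apart from the test against a 2-fold change, 9 of the 10 genes kept their side of the thresholds in all 13 alternatives to the fit. The 2 called lncRNAs near these genes were 1 without a filter on low counts, 0 with the replicate number as a block and 0 to 1 with 1 library left out. By construction, the missing filter adds tests and a left-out library removes degrees of freedom. Whether this or the values of single libraries lost the calls was not tested. All 9 family ratios were without overlap between groups in every alternative that kept them, and a minimum of 1 FPKM in every library left 8, all without overlap, since Was fell below it. Leaving out a library, dropping pairs or using counts in place of FPKM could not have made the groups overlap. Only the addition of 0.1 FPKM to each gene could have changed this result.

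The labels do not say whether same-numbered libraries were handled together. Their deviations from the group means had correlations of -0.105, 0.0439 and -0.0353, and not every library correlated best with its own number. With 3 libraries a group such correlations cannot decide whether the numbers pair the libraries. With the replicate number as a block 907 genes were called up-regulated, against 946, and Coro1a had an adjusted p of 0.0463. Scaling moved the median log2FC of all genes between -0.05 and 0.03. Among the 10 actin regulators Was in sham libraries (29 to 42 counts) rests on the smallest counts, and the called lncRNAs had 12 to 60 counts. Some called genes of the lists, such as Scin, Cd3e and S100a8, had fewer counts in sham libraries. Scin, Cd3e and S100a8 passed the filter on low counts only through their BCP counts, so their direction was fixed by it.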
